A study of Mus musculus with 2 samples.

Results

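Contigs that overlap a contig on the opposite strand were drawn from a table of transcribed regions of the mouse colon. A contig is a stretch of the genome, on 1 strand, that reads covered without a break. A contig of at least 200 bases counted as overlapping when it shared at least 100 bases with a contig of at least 200 bases on the other strand. This rule gave 17492 contigs, which were 5.94% of the 294310 contigs of at least 200 bases and 3.11% of all 562412 contigs, and they formed 9616 pairs. The tissue was colon of adult C57BL/6J mice aged 8 weeks, from littermates, with the sex given as pooled male and female. The labels number 2 libraries as biological replicates of this single group, with no treatment, transgene or control group, and name a biosample for each but 1 donor record for both. Both libraries were stranded and made from polyadenylated RNA of more than 200 nucleotides, with ribosomal RNA removed, and were read from both ends at 76 nucleotides. Because all animals are 1 group and the contig table holds 1 level per contig for the whole series, the pairs are described here and not compared between conditions.

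Transcription from opposite strands of the same DNA is common in mammalian genomes. Neighbouring genes can run towards each other and overlap at their 3′ ends, can start from a shared promoter region and run apart with their 5′ ends overlapping, or an RNA can lie wholly inside a gene on the other strand. RNAs of this kind are called natural antisense transcripts, and some are known to affect the splicing, stability or transcription of their partner. A stranded library is made to keep the strand of each RNA, which is what allows such pairs to be seen. How completely the strand was kept was not measured here. Contigs were named by their position on the mm9 assembly, 1-based, since no gene annotation of that build was used here. The end of a contig is where coverage stopped, which need not be the end of a transcript.

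The libraries held 46689262 expected counts in replicate 1 and 45966841 in replicate 2. All 6 epithelial markers of the colon reached a TPM of at least 1 in both, with totals of 18530.5 and 21555 TPM. Of 6 pancreatic acinar markers, 3 reached a TPM of at least 1 in replicate 1 and the lowest was at 0 (total 25.7 TPM), while all 6 did in replicate 2 (total 27815.8 TPM). The contig table does not separate the libraries, and the part of this RNA in the levels below was not tested.

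The pairs mostly had 1 contig inside the other. The shorter contig was covered over its full length in 50.96% of pairs, and 4893 pairs (50.9%) were nested, with the plus contig inside in 2503 and the minus contig inside in 2390. Another 3033 pairs (31.5%) overlapped head to head, that is, at the 5′ ends of both contigs, and 1683 (17.5%) overlapped tail to tail, at the 3′ ends of both. The remaining 7 pairs had the same span on both strands. Head-to-head pairs thus outnumbered tail-to-tail pairs among the partial overlaps. With overlaps of 1 to 99 bases, which the rule left out, 710 were head to head and 614 tail to tail.

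The strands were used evenly. Of the overlapping contigs 8790 (50.3%) lay on the plus strand, against 50.7% of all contigs of at least 200 bases. Where the levels of a pair differed, the plus contig was the higher in 48.9%. Most contigs had a single partner, 16019 of them (91.6%), while 1473 had more. The contigs joined into 7876 linked groups, of which 6649 were a simple pair and the largest held 12 contigs, so pairs that share a contig are not independent of each other.

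Overlaps were short. The median was 290 bases, with quartiles of 227 and 414, and 307 pairs (3.19%) shared 1000 bases or more. The longest overlap was 4705 bases. Near the threshold, 118 pairs overlapped by 100 to under 110 bases and had a median level ratio of 2.95, while 123 pairs with 90 to 99 bases, just outside, had 4.41. One of the pairs at exactly 100 bases was chr1:16609003-16609495 on plus with chr1:16608565-16609102 on minus, at levels of 0.421 and 0.694. The other was chr11:117683921-117685123 with chr11:117685024-117685287, at 0.638 and 0.099. At 99 bases lay chr1:38075974-38076219 with chr1:38076121-38076379, at 0.143 and 0.174, and chr10:58921494-58921696 with chr10:58921598-58921862, at 0.643 and 0.176.

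The level in the table is a signal per base: the summed signal of a contig per kilobase, divided by its level, was close to 1 constant (median 17096) in all contigs with a level over 5. It is a mean over the whole contig, not over the shared bases, so a ratio of levels compares the contigs and not the strands within the overlap. The median ratio of the higher to the lower level was 4.07, with quartiles of 1.96 and 9.50. The ratio was under 2 in 2482 pairs (25.8%), from 2 to 10 in 4838 (50.3%), from 10 to 100 in 2053 (21.3%) and at least 100 in 243 (2.53%). Among all 29465 opposite-strand overlaps of 1 base or more between contigs of any length, 27.6% had a ratio under 2 and 3.4% a ratio of at least 100. The shares among the 9616 pairs were near these, so neither share is a result about the longer pairs.

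The ratio was larger in nested pairs than in partial overlaps. Nested pairs had a median of 5.03, head-to-head pairs 3.38 and tail-to-tail pairs 3.14. In nested pairs the inner contig was the lower in 3973 of 4893 (81.2%), and the outer contig stood at a median of 4.13 times the inner. The inner contig is the shorter by definition, and level rose with length (below), so nesting and length cannot be told apart here. In partial overlaps the longer contig was the higher in 68.4%. The length of the overlap went with the ratio hardly at all (Spearman's rho -0.01 over 9616 pairs) but with the lower level more clearly (rho 0.48). Pairs overlapping by 1000 bases or more had a median lower level of 1.86, against 0.198 for overlaps under 200 bases. Long overlaps need long contigs, and level rose with length without an overlap too. The median level of contigs in no pair was 0.206 from 200 to under 400 bases and 2.62 from 1000 bases. The levels of plus and minus contigs of a pair were nearly unrelated (rho 0.09). These correlations are across pairs, which share libraries and in part contigs, and they carry no test.

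**Figure D1:**
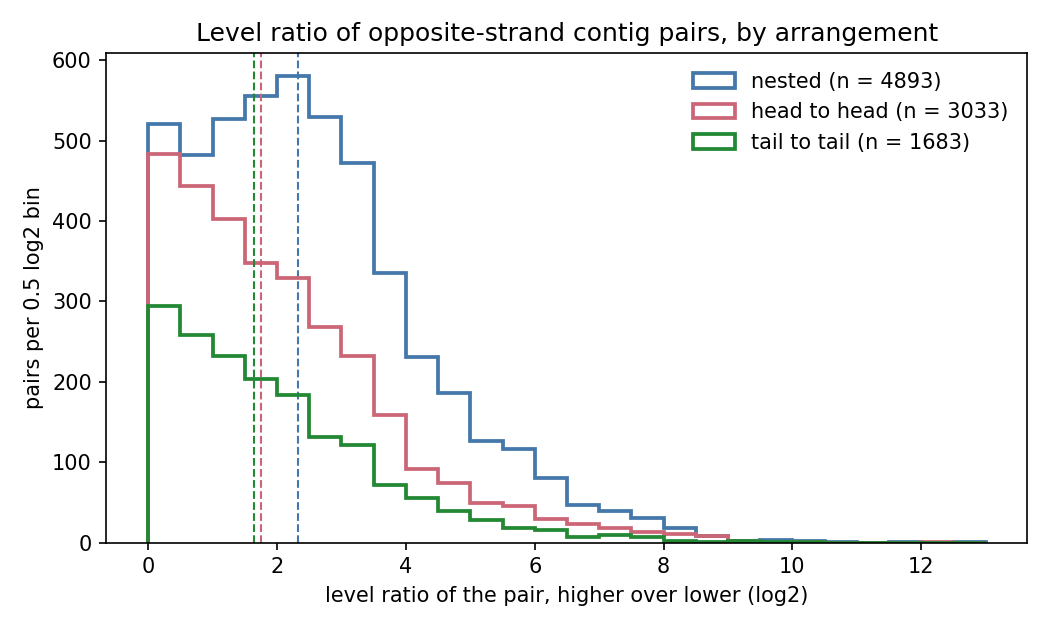
Number of pairs (vertical axis) by the log2 of the higher over the lower level (horizontal axis, bins of 0.5) for nested, head-to-head and tail-to-tail pairs; dashed lines mark each median. The nested pairs peak away from 0 with a median ratio of 5.03, while both kinds of partial overlap are most frequent near equal levels.

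Higher and lower contigs were unlike each other in length as well as in level. The 8222 contigs that were the higher in all of their pairs had a median length of 718.5 bases and a median level of 1.57. The 8848 that were the lower in all of theirs had a median length of 352 bases and a median level of 0.28. For the 276818 contigs with no such overlap the medians were 349 bases and 0.291. The medians of the lower contigs were thus close to those of contigs without an overlap, while the higher contigs were longer. The upper ends of their levels were further apart: 13.7% of lower contigs reached a level of at least 1 and 0.746% a level of at least 10, against 23.2% and 5.49% of contigs without an overlap. Level defined these roles, so the difference in level is fixed by the definition. Length was not used, but it went with level. In contigs without an overlap the median level was 0.206 from 200 to under 400 bases, 0.441 from 400 to under 1000 and 2.62 from 1000. The difference in length is thus not independent of the roles. A level of at least 1 was reached by 36.6% of all overlapping contigs, against 24% of all contigs of at least 200 bases. Longer contigs have more bases in which to overlap another, and no test was made since contigs are not replicates.

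The significance column of the table takes 18 values from 0 to 0.6. The sources used here do not say what it measures, but it ran opposite to level (Spearman's rho -0.91 over the 294310 contigs of at least 200 bases), so that low values went with high levels. A value of 0 was held by 61.9% of overlapping contigs, against 44.2% of all contigs of at least 200 bases. By role the share was 84.4% in higher contigs and 39.6% in lower contigs, and 43.1% in contigs without such an overlap. Both contigs of a pair stood at 0 in 41.5% of pairs. This share was 51.1% in head-to-head pairs, 37.8% in tail-to-tail pairs and 36.9% in nested pairs. By overlap it was 21.2% under 200 bases, 20.5% from 200 to under 300, 49.5% from 300 to under 500, 90.6% from 500 to under 1000 and 96.7% from 1000. Long overlaps need long contigs, and length alone went with this value. Among contigs without such an overlap 0 was held by 20.7% from 200 to under 400 bases, 70.7% from 400 to under 1000 and 98.0% from 1000. Overlapping contigs of these lengths held it in 24.3%, 82.2% and 98.1%. Length and overlap cannot be told apart in the shares by overlap. At a ratio of at least 100 the higher contig was at 0 in every pair, and the lower contig in 18.9%. Values over 0.1 were found in the lower contig of 63.5% of pairs whose lower level was under 0.2, and of 0.56% where it was from 0.2 to 1.

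Splice junctions give a measure that the rule did not use. The junction table lists introns by strand, with reads crossing each of them as separate counts R1 and R2, which the table does not tie to a replicate number. It held 402639 junctions with 18301894 reads in R1 and 19057116 in R2. A junction was assigned to a contig of its own strand when the exonic base at either end of the intron lay inside it. By this measure 48.0% of overlapping contigs had an own-strand junction, against 33.3% of all contigs of at least 200 bases. The share was 68.7% in higher contigs and 28.2% in lower contigs.

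Pairs fell into 4 classes by these junctions. In 2444 pairs (25.4%) both contigs had a junction on their own strand, in 4266 (44.4%) the higher contig alone, in 449 (4.67%) the lower contig alone, and in 2457 (25.6%) neither. Pairs spliced on both strands had median levels of 4.54 and 0.881 and a median overlap of 408 bases. Pairs with junctions in the higher contig alone had medians of 2.28 and 0.281, with the largest median ratio of the classes, 7.17. Pairs with a junction in neither contig were low on both strands, at 0.416 and 0.188. This class made up 45.1% of pairs with a lower level under 0.2, but 2.43% of those from 1 to under 5. A lack of junction reads at low levels therefore does not show a lack of splicing. Junctions on both strands were found in 31.8% of head-to-head pairs, 23.0% of nested pairs and 21.0% of tail-to-tail pairs. By overlap they were found in 15.2% of pairs under 200 bases and in 82.4% of pairs of 1000 bases or more. Contigs in no pair also had an own-strand junction more often when long, in 23.1% under 400 bases and 75.03% from 1000 bases. Length and overlap cannot be told apart here. With at least 10 junction reads required in each contig, 831 pairs (8.64%) remained, and with at least 100 reads 237 (2.46%). The share of pairs with junctions in both contigs depended on the rule: it was 6.89% with only junctions of at least 10 reads and 15.5% with the junction end inside the overlap. It was 43.8% with levels at or over the median, 47.6% with a significance of 0 in both contigs and 53.1% with a minimum length of 500 bases.

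**Figure D2:**
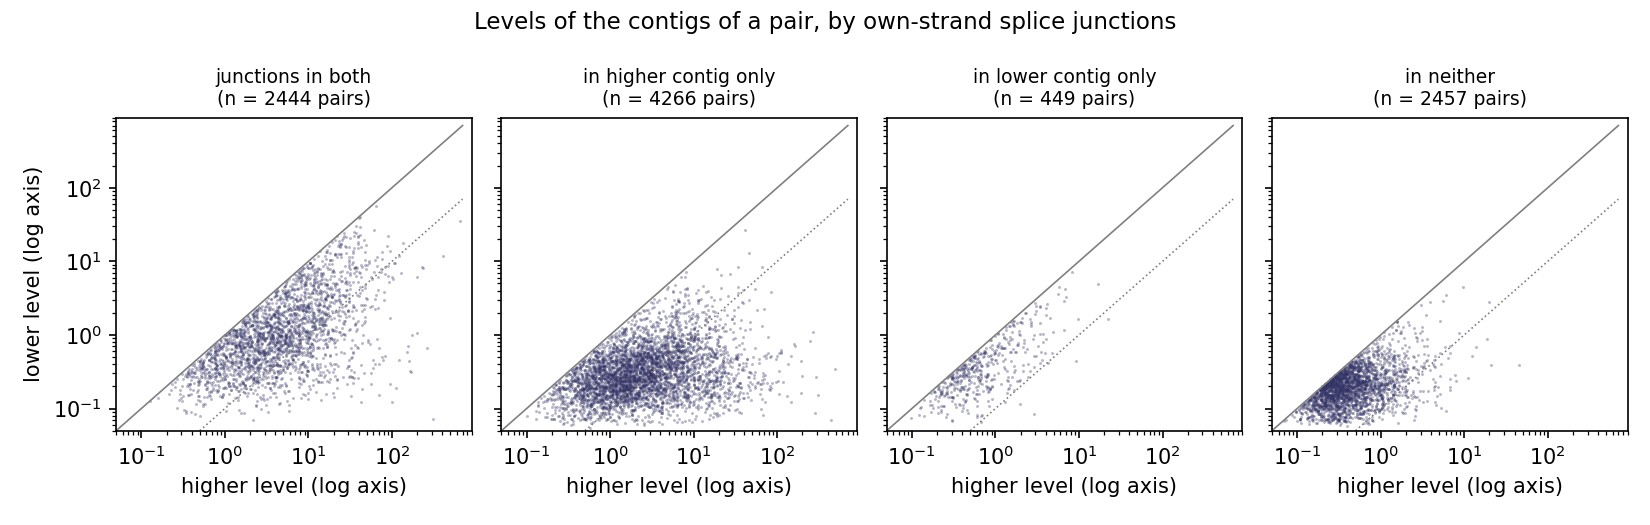
Each point is a pair, with the higher level on the horizontal and the lower level on the vertical axis (both log), in 4 panels by which contigs hold an own-strand splice junction. The solid line marks equal levels and the dotted line a ratio of 10. The 2457 pairs without junctions lie at low levels near the solid line. The 4266 pairs with junctions in the higher contig alone spread to the right, with a median lower level of 0.281.

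Contig length changed these shares but not their order. Among contigs of 200 to under 400 bases an own-strand junction was found in 50.2% of higher contigs, 16.2% of lower contigs and 23.1% of contigs without an overlap. From 400 to under 1000 bases the shares were 63.5%, 38.0% and 38.7%, and from 1000 bases 87.4%, 72.9% and 75.03%. Below 400 bases the share of lower contigs was thus under that of contigs without an overlap. From 400 bases the exact 95% binomial intervals of the lower contigs (36.2% to 39.8%, and 69.7% to 76.04%) included the share of the others. Contigs are not replicates and some are linked, so these intervals cover counting error only and are no test of equal shares. Level still differed within a length. Below 400 bases the median levels of higher, lower and other contigs were 0.521, 0.205 and 0.206. From 1000 bases they were 4.33, 1.36 and 2.62. The part of level in these shares was not tested. Junctions of the other strand were more frequent in lower contigs than their own at every length: 30.4% under 400 bases, 56.8% from 400 to under 1000 and 85.4% from 1000. In contigs without an overlap the same measure was 2.01%, 5.21% and 16.5%. A contig that overlaps an expressed contig of the other strand can hold its junctions by position alone, so the last comparison follows in part from the rule.

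**Figure D3:**
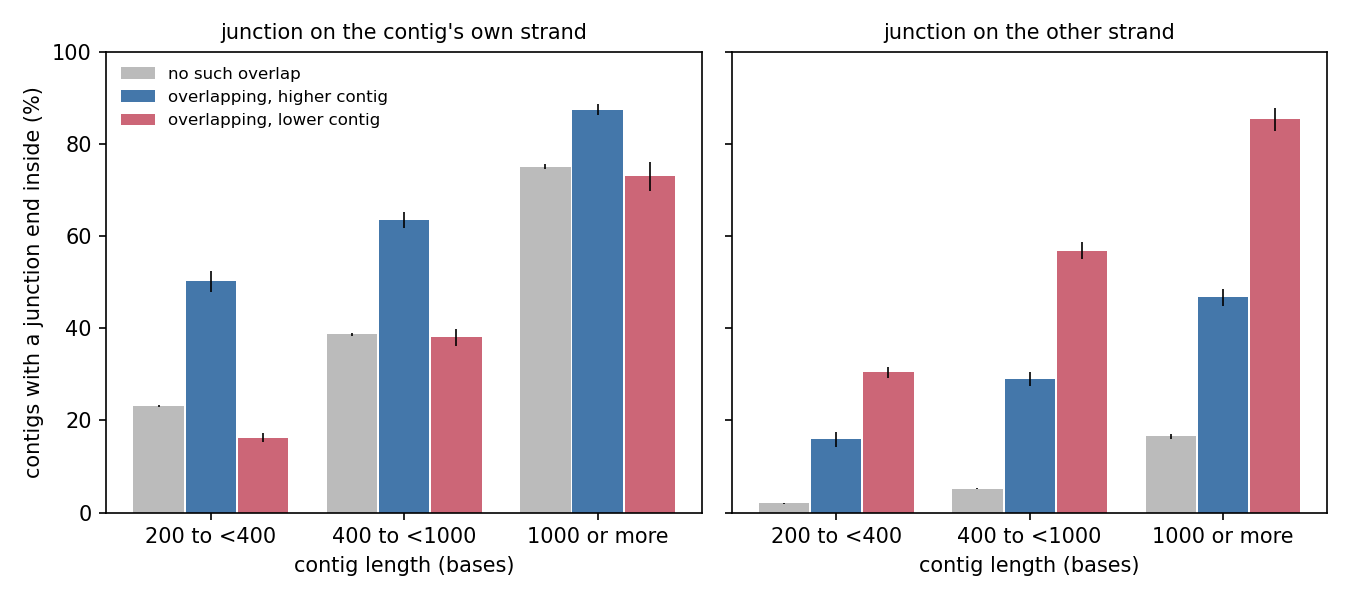
Percent of contigs with a junction end inside (vertical axis) by contig length, for junctions of the contig's own strand (left) and of the other strand (right); bars are contigs without the overlap, higher contigs and lower contigs, and error bars are exact 95% binomial intervals, which cover counting error only. Higher contigs lead on their own strand at every length (50.2% to 87.4%), and lower contigs lead on the other strand (30.4% to 85.4%).

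The pairs with the strongest transcription on both strands had levels of at least 24.7 in each contig. The highest of these overlapped head to head on chromosome 2, with chr2:155969773-155970421 on plus at 64.3 and chr2:155969756-155970016 on minus at 56.9, a ratio of 1.13 over 244 shared bases. Its plus contig had 4655 junction reads in R1 and 4237 in R2, and its minus contig 195 and 253. The levels were close to equal although the spliced reads lay mostly on plus in both counts. These reads are sums over the distinct junctions of each contig, 11 on plus and 3 on minus. On chromosome 11 a tail-to-tail pair was more even still, with chr11:115659027-115660612 at 40.5 and chr11:115660295-115665375 at 41.0, a ratio of 1.01 over 318 bases. Its junction reads were 843 and 1323 on plus and 3005 and 3855 on minus, so both strands were spliced in both counts.

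The third, on chromosome 7, was nested: chr7:30028980-30029327 on plus, at 40.0, lay inside chr7:30027464-30034697 on minus, at 39.2. The inner contig had 480 junction reads in R1 and 496 in R2, and the outer contig 14330 and 14216. A second plus contig inside the same minus contig, chr7:30029378-30029958 at 22.0, had 1281 and 1181 reads. The levels of these contigs were similar while their junction reads differed more than 10-fold, and the outer contig is also the longer by far.

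Chromosome 9 held the highest contig of any pair, chr9:45737744-45740010 on minus, at 649. Its partner chr9:45736592-45738050 on plus stood at 35.3, and they met tail to tail over 307 bases with a ratio of 18.4. Junction reads were 10269 and 11400 on minus and 104 and 170 on plus. The plus contig was thus low beside its partner but high among contigs that were the lower in all of their pairs, of which 1% exceeded 8.43. On chromosome 17, chr17:34168541-34170699 on plus at 27 met chr17:34167006-34169284 on minus at 60.6 head to head, with 612 and 545 junction reads on plus and 3417 and 2738 on minus.

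In the remaining 3 of these 8 pairs 1 contig lay inside the other. On chromosome 11, chr11:98629357-98630462 on plus at 37.1 lay inside chr11:98629246-98634607 on minus at 30.4, with 124 and 228 junction reads on plus and 1728 and 2352 on minus. Also on chromosome 11, chr11:98216639-98216842 on minus, at 29.6, lay inside chr11:98209463-98219189 on plus, at 41.6. That inner contig had only 3 and 1 junction reads, the fewest on either strand among the 8 pairs, against 6243 and 6980 on plus. On chromosome 7, chr7:112888615-112890425 on plus at 24.7 lay inside chr7:112887907-112892959 on minus at 35.5, with 2184 and 2235 junction reads on plus and 1397 and 1165 on minus. There the lower contig had the more spliced reads. The significance column was 0 for every contig of the 8 pairs.

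Long overlaps were of several kinds. The longest, 4705 bases, was tail to tail on chromosome 11, between chr11:115750319-115758560 on plus at 49.9 and chr11:115753856-115758698 on minus at 3.10. Junction reads were 13088 and 14236 on plus and 275 and 288 on minus. In the map of this pair, plus junctions with at least 10 reads lie in the upstream part of the plus contig, outside the overlap, while nearly all of the minus junctions lie within it. The second, on chromosome 9, was almost even: chr9:107953656-107958032 on plus at 7.40 lay inside chr9:107953552-107958535 on minus at 8.27, over 4377 bases, with 287 and 233 junction reads on plus and 1578 and 1406 on minus.

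Both of the next pairs were on chromosome 17. The contig chr17:25516101-25520381 on minus, at 6.43, lay inside chr17:25516019-25521411 on plus, at 3.27, with 740 and 538 junction reads on minus and 42 and 53 on plus. Here the inner contig was the higher, unlike in 81.2% of nested pairs. The pair chr17:25023590-25029126 on plus, at 12, and chr17:25025271-25032416 on minus, at 7.16, met tail to tail over 3856 bases with 1896 and 1592 reads on plus and 501 and 557 on minus. The fifth, head to head over 2780 bases on chromosome 11, joined chr11:120581930-120584777 on plus at 6.51 to chr11:120581876-120584709 on minus at 1.86. It had 576 and 383 junction reads on plus but 1 and 1 on minus, so few spliced reads were seen on this long minus contig. The sixth, chr2:164616535-164619270 on plus at 8.68 inside chr2:164615227-164619719 on minus at 2.51, had 161 and 154 reads on plus and 358 and 231 on minus.

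**Figure D4:**
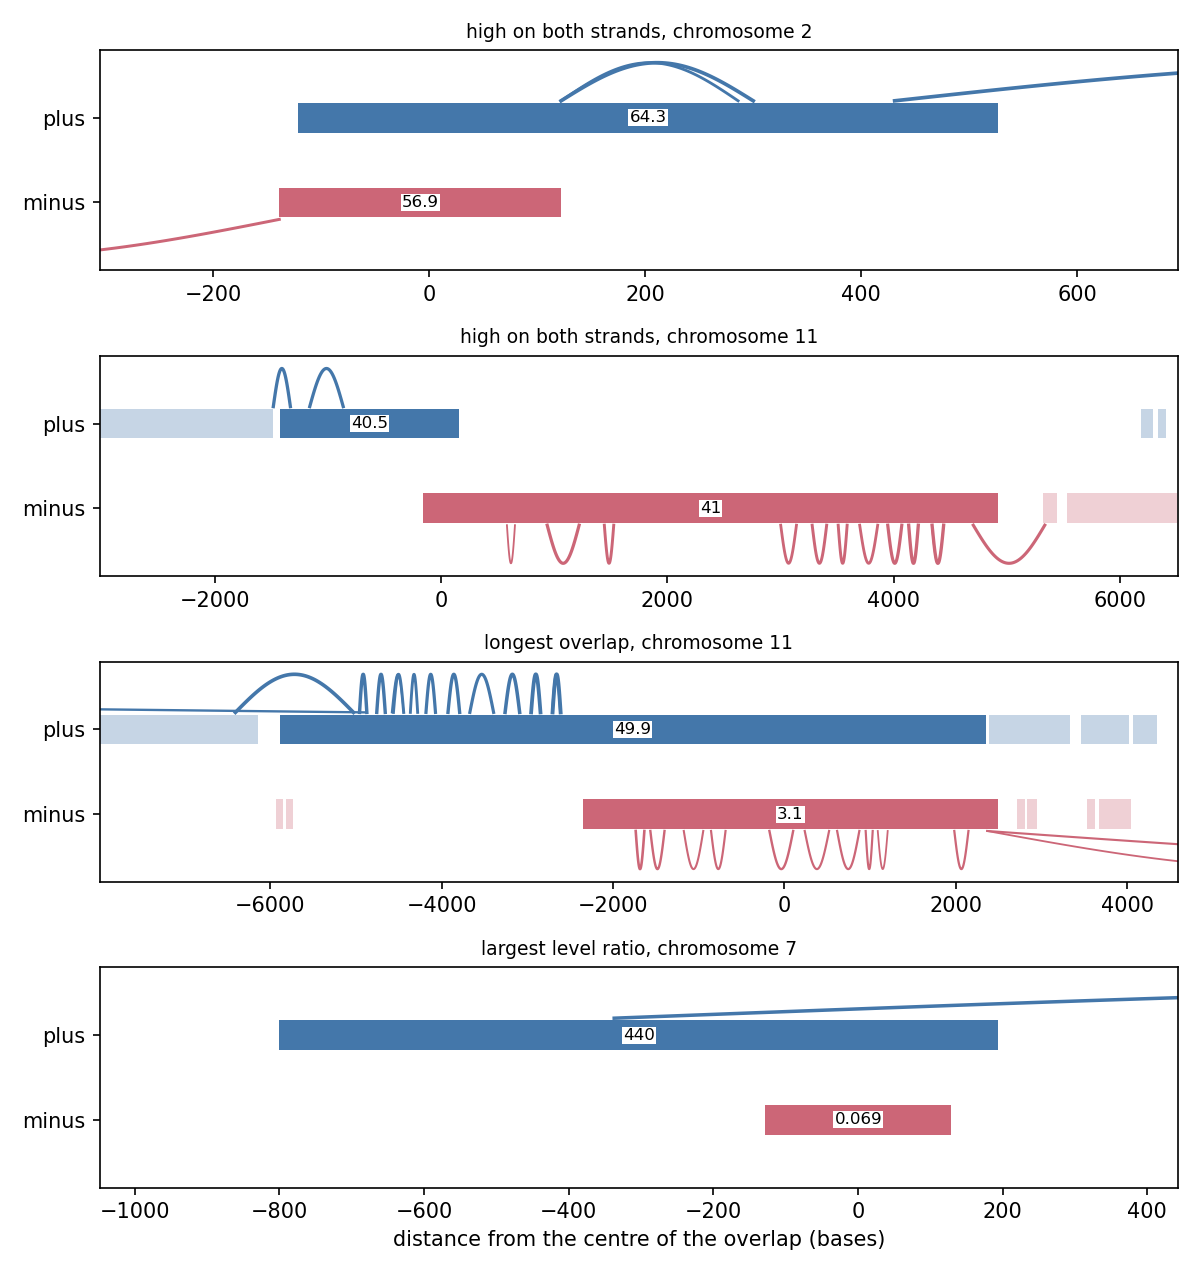
Contigs (bars, with the level printed on both contigs of the pair; neighbouring contigs are paler) and splice junctions with at least 10 reads (arcs) of 4 pairs, by distance in bases from the centre of the overlap, plus strand above and minus strand below. From the top these are the even pairs of chromosome 2 (64.3 and 56.9) and chromosome 11 (40.5 and 41.0), the longest overlap (4705 bases) and the largest ratio (440.0 against 0.069); only the last lacks minus-strand junctions.

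At the other extreme a faint contig lay against one of the strongest in the table. The largest ratio, 6377, was on chromosome 7, where chr7:19470532-19470788 on minus at 0.069 lay inside chr7:19469860-19470853 on plus at 440.0. Next came chr9:59503907-59504114 on minus at 0.073, head to head with chr9:59503995-59505415 on plus at 310.0, a ratio of 4247. The third was chr11:96056507-96056709 on minus at 0.088 inside chr11:96055458-96056764 on plus at 284, a ratio of 3227. In these 3 pairs the lower contig had a significance of 0.37, and it had 0, 1 and 0 junction reads of its own strand in R1 and R2 together. The higher contigs had 2391, 52780 and 7491.

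The fourth pair had its faint contig on plus, chr5:122043710-122043942 at 0.153 (significance 0.15), inside chr5:122043031-122044019 on minus at 305, with 0 junction reads against 16433. The fifth differed from the others in the significance and length of its faint contig. This contig, chr2:118599588-118600275 on minus, at 0.342, had a significance of 0 and a length of 688 bases. It lay inside chr2:118599379-118604561 on plus at 494. It too had 0 own-strand junction reads, against 129969 on plus. Over all 243 pairs with a ratio of at least 100, the lower contig had an own-strand junction in 43 (17.7%) and the median lower level was 0.189. Whether reads assigned to the wrong strand had a part in such faint contigs was not tested.

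Splicing was strong on both strands in a small set. The pair with the most reads on its less spliced strand was tail to tail on chromosome 15, chr15:76280910-76283468 on plus at 19.2 and chr15:76283334-76285025 on minus at 46.8, sharing 135 bases. Its junction reads were 2564 and 2300 on plus and 2883 and 2735 on minus. The next, also tail to tail, joined chr17:24730004-24733431 on plus at 39.6 to chr17:24732901-24735606 on minus at 17.0, with 2685 and 2581 reads on plus and 2093 and 1727 on minus. The third was tail to tail over 1624 bases, chr9:21391168-21393906 on plus at 26.8 with chr9:21392283-21394917 on minus at 22.3, with 1611 and 1407 reads on plus and 1610 and 1292 on minus. These 3 pairs had near balance between strands in both counts, with ratios of level from 1.20 to 2.44. The nested pair of chromosome 7 at chr7:112888615-112890425, given above, was the fourth. The fifth was head to head, chr19:7015968-7017801 on plus at 12.4 with chr19:7012086-7016969 on minus at 20.7, with 1391 and 1138 reads on plus and 1656 and 1338 on minus. The nested contig chr7:30029378-30029958, also given above, completed the 6.

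A few long contigs faced many short ones. The minus contig chr19:10126398-10134031, 7634 bases long at a level of 1.85, overlapped 7 plus contigs, more than any other. Of these 6 were higher than it, up to 17.2 for chr19:10127324-10127590, and 1 was lower, chr19:10131942-10132239 at 0.381. The 6 higher plus contigs had from 390 (chr19:10132304-10134914) to 1451 (chr19:10128307-10129944) junction reads, the lower one had 0, and the minus contig had 10. On chromosome 1 the reverse was seen: the plus contig chr1:133919765-133923078 at 2.19 faced 6 minus contigs that were all lower, from 0.163 to 1.22, and of these only chr1:133919479-133920406 had own-strand junction reads, 7 in all. The minus contig chr16:4953270-4956066 at 1.18 likewise faced 6 lower plus contigs, from 0.173 to 0.96.

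Chromosomes differed in how often their contigs were paired. Among nuclear chromosomes with a pair, the share of contigs of at least 200 bases with an opposite-strand partner was highest on chromosome 11 (1785 of 22629, 7.89%), chromosome 17 (7.80%) and chromosome 7 (7.74%). It was lowest on chromosome X (207 of 5343, 3.87%) and chromosome 18 (4.06%). Pairs were found in 1455 of the 2320 windows of 1 Mb that held a contig of at least 200 bases. Among them, 101 windows held 20 or more pairs each, 3001 pairs in all. The fullest window, chr7:52000001-53000000, held 84 pairs among 613 contigs, with a median ratio of 3.23. Windows next in number were chr11:3000001-4000000 with 57 pairs among 404 contigs and chr7:148000001-149000000 with 54 among 469. This order is by number of pairs and not by pairs per contig.

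The mitochondrial genome, which is transcribed from both of its strands over long distances, had a single pair. It held only 10 contigs of at least 200 bases, and 2 of them (20%) formed this pair. The exact binomial interval of this share, 2.52% to 55.6%, included the shares given above for nuclear chromosomes. With so few contigs, the single pair does not show that such overlaps were rare or frequent there. The plus contig chrM:9415-9656 stood at 0.32 with a significance of 0.03, and the minus contig chrM:9392-9601 at 0.082 with 0.37. They overlapped head to head by 187 bases, with a ratio of 3.90 and 0 junction reads on either strand. Both contigs were below the median level of overlapping contigs, 0.544.

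The junction counts allow the strands to be compared between R1 and R2, the only measure of the pairs that is given as separate counts. For each pair with at least 10 junction reads and at least 1 on each strand, the reads on plus and minus in R1 and R2 were compared by a two-sided Fisher's exact test, adjusted by the Benjamini-Hochberg method over the 2215 pairs tested. Its p-values rest on counting error alone, and with 1 group they say nothing of a condition. The same strand led in both counts in 2070 of the 2215 pairs (93.5%). Separately, the junction reads led on the strand of the higher contig in 1868 of the 2215 (84.3%). Among 1420 pairs with at least 100 junction reads, the plus-strand percentage differed between R1 and R2 by a median of 1.43 percentage points.

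With an odds ratio of 2 or more required beside an adjusted p no larger than 0.05, the strand split differed in 106 pairs, which was 4.79% of those tested; at any odds ratio it differed in 157 (7.09%). Of the 106, the plus share was higher in R1 in 62 and in R2 in 44, and they came from 95 linked groups. Pairs called had a median of 467 junction reads, from 13 to 14951. With junctions of at least 10 reads alone, chosen after seeing the data, 101 of 663 pairs tested were called, of which 70 were called in both.

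The 4 pairs with the smallest adjusted p differed in kind. The first was chr6:29698065-29699145 on plus at 1.71 with chr6:29698067-29699058 on minus at 1.96, which had 498 junction reads on plus and 155 on minus in R1 but 157 and 442 in R2 (log2 odds ratio 3.17, Fisher's exact test, adjusted p = 1.13e-69). These reads were spread over 319 distinct junctions on plus and 313 on minus, of which 204 and 202 had 1 read. No single junction exceeded 13 reads, which sets this pair apart from those with a few strong introns. The second, head to head, was chr17:46783082-46783607 on plus at 24.1 with chr17:46781064-46783401 on minus at 16.2. It had 230 reads on plus and 1755 on minus in R1 against 573 and 1402 in R2 (log2 odds ratio -1.64, adjusted p = 3.94e-40 by Fisher's exact test). One plus junction gave 787 of its 803 plus reads, 225 in R1 and 562 in R2.

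The third, also head to head, was chr9:20448770-20449460 on plus at 15.8 with chr9:20445671-20449204 on minus at 5.79. It had 202 reads on plus and 391 on minus in R1 and 528 and 279 in R2 (log2 odds ratio -1.87, adjusted p = 1.23e-28 by Fisher's exact test), so the leading strand changed between the counts. The fourth was nested, chr5:31254426-31255955 on plus at 6.39 inside chr5:31254040-31261890 on minus at 20.2. It had 479 and 4785 reads in R1 and 109 and 3381 in R2 (log2 odds ratio 1.63, adjusted p = 1.39e-27 by Fisher's exact test), with minus leading in both. Its plus share was 9.10% in R1 and 3.12% in R2. Over all pairs in the plot of plus-strand shares, many of them with few reads, the median difference was 3.23 percentage points, with an upper quartile of 8.75. Among pairs with at least 100 junction reads, as this pair has, the median was 1.43 and the upper quartile 3.93, so its shift was larger than in most of them.

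**Figure D5:**
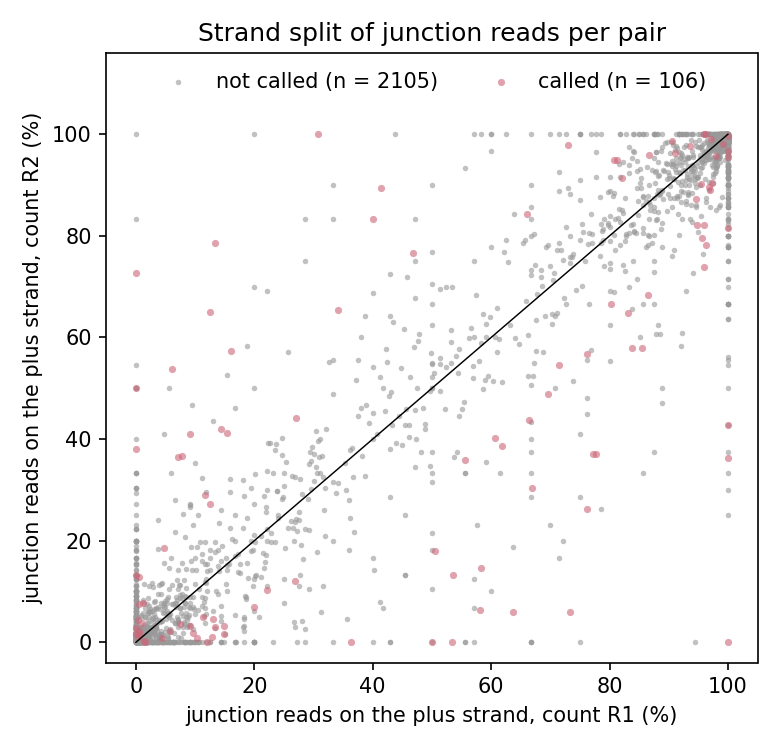
Percent of a pair's junction reads on the plus strand in count R1 (horizontal) and R2 (vertical) for the 2211 tested pairs with reads in both counts; the line marks equal percentages. The 106 called pairs are in red and lie on both sides of the line (62 below and 44 above), and the other pairs are grey.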

How the data were processed

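Polyadenylated RNA of 2 colon libraries (1 group) was analysed. The contigs, pairs and lists were chosen with earlier results of these data known. Per the deposited file notes, contigs and junctions are RNA-element tables on mm9, 1 of each for the series; the caller, how libraries were combined and the meaning of the significance score the authors deposited are not given in sources used here. The authors' contig level is a signal per base; the authors' junction values are counts of reads, R1 and R2. The deposited gene tables (mm10, GENCODE M4) hold the authors' expected counts and TPM, used for depth and markers (symbols by gene identifier).

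Pairs were found, and Fisher's exact tests made, in Python 3.11.15 with scipy 1.17.1 and checked on simulated data; 0.5 was added to each count in odds ratios. Intervals cover counting error only. Named pairs, each contig once per class, were the 8 with the highest lower level, 6 longest overlaps, 5 largest ratios, 6 with most reads on the less spliced strand, mitochondrial pairs, 3 contigs with most partners, 4 smallest adjusted p and 2 on either side of the overlap threshold. Alternatives varied length, overlap, significance, level, partners and junction rules. Sequences and gene names of mm9 were not used here.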

Additional observations from a re-analysis of the deposited data

How the results depend on the processing

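The main values were 17492 contigs, 9616 pairs, a median ratio of 4.07, 25.8% of pairs within 2-fold, 17.5% tail to tail, 25.4% with junctions in both contigs and 106 pairs with a differing strand split. The median ratio stayed between 3.78 and 4.34 in every setting tried. A minimum length of 100 bases gave 28425 contigs, 15919 pairs, a median of 4.34, 23.98% within 2-fold, 13.0% tail to tail and 18.9% with both junctions; 500 bases gave 4572, 2474, 3.90, 18.8% tail to tail and 53.1% with both junctions. A minimum overlap of 50 bases gave 19.1% tail to tail; 200 bases gave 24.7% within 2-fold, 13.8% tail to tail and 27.1% with both junctions. An overlap of 50% of the shorter contig gave 15.2% tail to tail and 24.3% with both junctions. A significance of 0 in both contigs gave 7276 contigs, 3995 pairs, a median of 3.78, 26.9% within 2-fold, 15.9% tail to tail and 47.6% with both junctions. Mutual best partners gave a median of 3.90, 26.9% within 2-fold and 16.3% tail to tail. Levels at or over the median gave 8718 contigs, 4771 pairs, a median of 3.78, 27.8% within 2-fold, 15.2% tail to tail and 43.8% with both junctions. Without R1 or without R2, 18.5% to 20.4% had both junctions; with the junction end in the overlap 15.5%, and with junctions of at least 10 reads 6.89%. The strand split count lay between 75 and 157. Other settings stayed close, leaving out the mitochondrial genome among them. The cause of these shifts was not tested. Leaving out a library was possible for junctions alone. No paired analysis was possible because there is 1 group.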

Other observations

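The ends of contigs were compared with splice sites, within 5 bases. An end at a splice site of the contig's own strand was found in 17.3% of the 8222 higher contigs, 5.64% of the 8848 lower contigs and 11.7% of contigs without an overlap. An end at a splice site of the other strand was found in 464 lower contigs (5.24%), against 84 higher contigs (1.02%) and 383 of 276818 contigs without an overlap (0.138%). The last group was chosen for lacking such a partner on the other strand, so its low share follows in part from the rule. In lower contigs, ends at splice sites of the partner's strand were thus about as frequent as ends at their own. In 520 pairs (5.41%) the contigs shared a start or an end within 5 bases. What leads to these shared ends was not tested.

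Only 2 pairs had at least 100 distinct junctions in each contig, and 11 had at least 25. The pair of chromosome 6 described above, with 319 and 313, was one of the 2. With junctions of at least 10 reads alone, that pair kept 109 reads on plus and 20 on minus, and its log2 odds ratio was 7.97.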
